A study of Mus musculus with 9 samples.

Results

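Cytosolic ribosomal protein genes encode the proteins of the small and the large subunit of the ribosome. They were taken from the gene table by name: every symbol made of Rpl or Rps and a digit, together with Rpsa, Rplp0, Rplp1 and Rplp2, without names that hold -ps (pseudogenes) and without the Rps6k kinases. The rule found 93 of the 55385 genes in the table. Of these, 31 are small subunit genes and 46 are large subunit genes, 15 are paralogs or retrocopies of a member by their symbol, and Rps19bp1 is no ribosomal protein but a nucleolar protein that binds one. The rule uses the names and no measured value.

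Each ribosome holds one copy of most of these proteins, and a growing cell spends much of its transcription and translation on making them. Most of their mRNAs are short and begin with a run of pyrimidines at the cap, through which mTOR signalling and Larp1 set how well they are translated. They have also left many processed pseudogenes in the mouse genome, intronless copies whose sequence is close to that of the mRNA, so a read from one can be hard to place.

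The libraries are poly(A)-selected RNA from kidneys of mice labelled C57BL/6, and the study's methods describe young adult C57BL/6J males. The Control group (3 libraries, replicates 2, 4 and 5) was untreated and had no disease. The HN group (3 libraries, replicates 4, 8 and 12) had hyperuricemic nephropathy, raised in the study by oral adenine with potassium oxonate, a uricase inhibitor, and got no treatment. The PEC group (3 libraries, replicates 1, 2 and 3) had the same nephropathy and was given pectolinarigenin, a plant flavonoid, by mouth while the disease was raised. The study sequenced mice on the lower of its doses. All 9 libraries share the strain, the tissue and the preparation, and adenine with oxonate injures tubules by crystals as well as raising urate, which limits the model. The labels do not say that each library came from a separate mouse, so p-values measure the spread between these libraries. Groups follow the disease and treatment labels, as the titles call all 9 mice HN. The counts per library were 75320528, 74965874 and 78459183 in Control, with 74315544, 81069646 and 74212324 in HN and 74397038, 65583215 and 57714111 in PEC. The kidney label was checked against 12 proximal tubule markers: none was at 0 in all libraries, and Kap, an androgen-dependent kidney transcript, led them with a mean of 27653 CPM in Control.

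Of the 93 members, 90 had enough counts to be tested among 21392 genes, including all 77 canonical genes (small and large subunit genes without the paralogs). The 3 left out were Rpl39l, Rpl10l and Rps12l1, of which Rpl10l and Rps12l1 were at 0 in all 9 libraries. A gene is called higher or lower here at an adjusted p of at most 0.05 in edgeR's quasi-likelihood test (Benjamini-Hochberg over all genes tested). CPM stands for counts brought to a common library size after TMM scaling, which sets the libraries so that most genes do not change, and FPKM for the deposited values, which are divided by the library total and a gene length.

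Members took up a larger share of the counts in both disease groups than in Control. In Control they held 1.63% (95% Wilson interval 1.628 to 1.634), 1.7% (1.697 to 1.703) and 1.37% (1.364 to 1.369) of all gene counts. The HN shares were 2.85% (2.851 to 2.858), 2.78% (2.777 to 2.785) and 2.85% (2.85 to 2.857). Those of PEC were 2.88% (2.872 to 2.879), 2.46% (2.459 to 2.466) and 2.86% (2.852 to 2.861). Each library of HN and PEC lay above each Control library, while HN and PEC overlapped, and replicate 2 of PEC was the lowest of its group. The means were 1.57% ± 0.176 in Control, 2.83% ± 0.0421 in HN and 2.73% ± 0.233 in PEC (SD, n = 3). The intervals cover counting error only, and the spread between libraries was far wider. With 3 libraries against 3, an exact permutation test cannot go below p = 0.10.

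A share depends on what else fills the library, and the mitochondrially encoded genes filled very different parts of it. They held 13.3%, 12.9% and 16.3% of the counts in Control, with 6.01%, 6.22% and 6.34% in HN and 13%, 10.3% and 13.6% in PEC, each with a Wilson interval of at most 0.01 percentage points to either side. Control replicate 5 had the highest mitochondrial share and the lowest member share. With these genes left out of the totals, members held 1.82% ± 0.169 in Control, 3.02% ± 0.0444 in HN and 3.12% ± 0.324 in PEC (SD, n = 3), so the order of Control below both disease groups stayed. In bulk RNA of a whole kidney, fewer cells of a type and less RNA per cell cannot be told apart.

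The balance between the subunits needs no scaling, since both are counted in the same library. The count on small subunit genes over that on large subunit genes was 0.651, 0.654 and 0.648 in Control. It was 0.693, 0.694 and 0.685 in HN, and 0.706, 0.721 and 0.715 in PEC. No library of 1 group reached the range of another, and the means were 0.651 ± 0.00304, 0.69 ± 0.00512 and 0.714 ± 0.00742 (SD, n = 3). When the counts of pseudogenes that match a canonical gene in sequence were added to that gene, Control stayed lowest with 0.609, 0.613 and 0.601. The HN ratios then were 0.645, 0.648 and 0.643 and the PEC ratios 0.64, 0.655 and 0.648, so the gap between HN and PEC was lost.

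**Figure D1:**
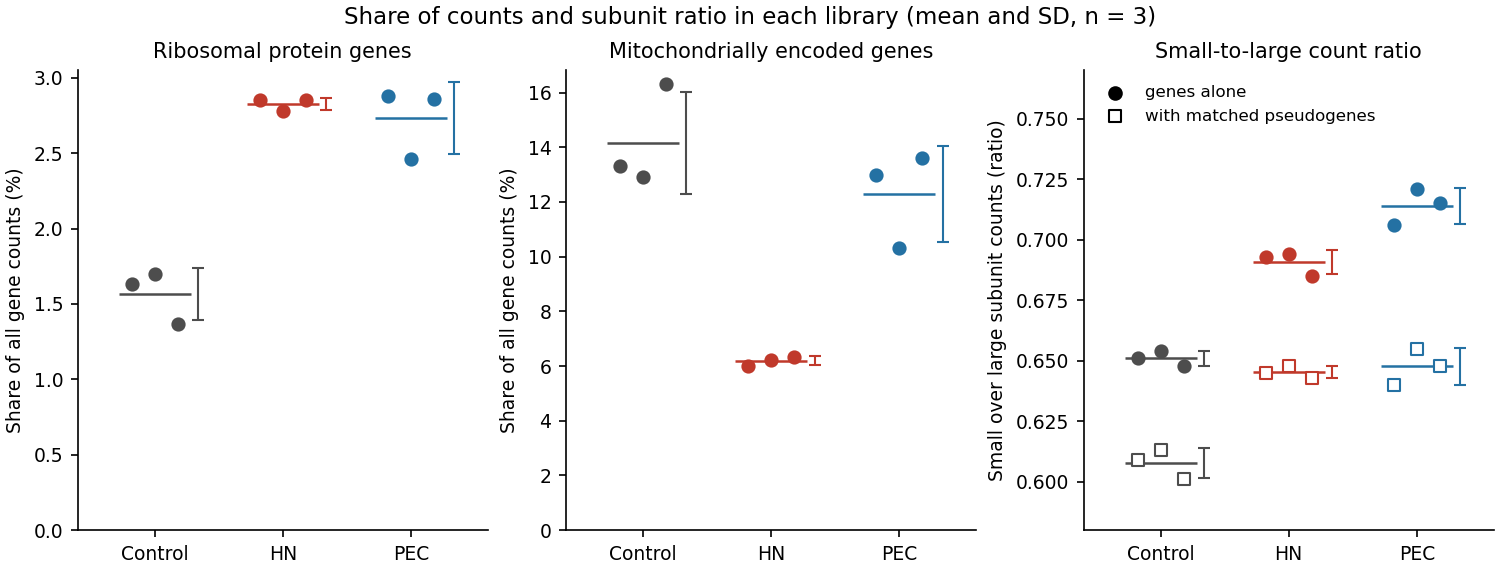
Share of all gene counts on the 93 ribosomal protein genes (left, %) and on mitochondrially encoded genes (middle, %), and the ratio of small to large subunit counts (right, axis not from 0), in each library of Control, HN and PEC, with the mean as a line and the SD as a bar (n = 3). The 3 Control libraries lie below the other 6 in member share (at most 1.7% against at least 2.46%) and in the ratio (at most 0.654 against at least 0.685), and with matched pseudogenes added (open squares) HN and PEC overlap.

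The first comparison asks how the diseased kidney differed from the healthy one. In HN against Control, 43 of 90 members tested rose and 4 fell, where 21.1% of all genes tested rose and 20.7% fell. Every canonical gene that was called rose: 20 of 31 small subunit genes and 20 of 46 large subunit genes, while edgeR and DESeq2 each called 0 of the 77 lower and 0 were lower at an unadjusted p under 0.05 in edgeR. The median log2 fold change was 0.39 over the small subunit genes, 0.28 over the large subunit genes and 0.30 over all members, against -0.00 over all genes. The differences were small, since 89 of 90 members moved by less than 2-fold, and members that were not called cannot be taken as unchanged. With a change of at least 1.5-fold and an unadjusted p of at most 0.05 as the rule, 10 members rose and 1 fell (11.1% and 1.11%), while 19.7% of all genes rose and 16.5% fell. Without HN replicate 4 the test called 28 members higher (31.1%, against 17.6% of all genes).

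The libraries of 56 members lay higher in all of HN than in all of Control and those of 4 lay lower, while the same held for 28% and 27.4% of all genes. When libraries were scaled by their totals alone, the median of all genes itself moved to 0.56. Then 81 members rose and 1 fell (90% and 1.11%, against 45.1% and 7.97% of all genes), and their median of 0.86 lay 0.30 above that of all genes, close to the 0.31 under TMM scaling. Gene length was also removed, taken as the length implied by count, FPKM and library total and not that of the annotated mRNA. With the dependence on this length removed, the all-gene median was -0.22 and the members lay 0.35 above that median. Then 13 members rose and 5 fell, 1 of the latter a canonical gene. These are 14.4% and 5.56% of the members, against 16.7% and 31.6% of all genes.

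The highest small subunit genes by mean FPKM over the 9 libraries were Rps15, Rps3a1 and Rps6. Rps15, a protein of the head of the small subunit, stood at 367, 376 and 284 FPKM in Control, with 587, 559 and 600 in HN and 813, 685 and 791 in PEC. Its 3 groups did not overlap on this scale. On the TMM scale it was not called in HN (log2 fold change 0.24 ± 0.11 SE) and rose by 0.61 ± 0.11 in PEC against HN (edgeR adjusted p = 0.00246). Rps3a1 stood at 350, 361 and 277 FPKM in Control, with 652, 612 and 636 in HN and 592, 546 and 561 in PEC. HN and PEC both lay above Control, and it rose by 0.41 ± 0.10 in HN (edgeR adjusted p = 0.00792) with 0.05 ± 0.10 in PEC against HN.

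Rps6, the protein phosphorylated by the kinases downstream of mTOR, stood at 194, 192 and 170 FPKM in Control, with 326, 321 and 327 in HN and 334, 331 and 391 in PEC. It rose by 0.28 ± 0.09 in HN (edgeR adjusted p = 0.0315) and by a further 0.33 ± 0.09 in PEC (edgeR adjusted p = 0.0154). Both calls are close to the threshold: the first was lost without Control replicate 4 or 5 or without any 1 of the HN replicates (0.24 to 0.30), and the other without HN replicate 8 (0.31) or 12 (0.32). Rps13, among the larger rises in HN, stood at 116, 98.3 and 92.9 CPM in Control, with 156, 147 and 170 in HN and 164, 131 and 167 in PEC. It rose by 0.62 ± 0.12 (edgeR adjusted p = 0.00323), but with its 6 matched pseudogenes added the difference was 0.29 and not called, so its reads could be split with copies.

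Among large subunit genes, the acidic proteins Rplp0 and Rplp1 form the stalk that brings elongation factors to the ribosome. Rplp1 had the highest mean FPKM over the 9 libraries of all canonical genes, though in PEC its mean was below that of Rps15. It stood at 682, 696 and 451 FPKM in Control, with 1247, 1247 and 1238 in HN and 814, 685 and 713 in PEC. The HN libraries were above all others, while Control and PEC overlapped. It rose by 0.50 ± 0.14 in HN (edgeR adjusted p = 0.02) and fell by 0.54 ± 0.14 in PEC against HN (edgeR adjusted p = 0.0162). The rise was not called without HN replicate 4 (0.48) or 8 (0.51), nor the fall without PEC replicate 2 or 3 (-0.49 for each).

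Rplp0 stood at 355, 383 and 304 FPKM in Control, with 611, 591 and 633 in HN and 518, 479 and 452 in PEC. It rose by 0.29 ± 0.09 in HN (edgeR adjusted p = 0.0359), a call lost without Control replicate 2 or 5 or without any 1 of the HN replicates (0.22 to 0.32), and was not called in PEC against HN (-0.12 ± 0.09). Rpl36 stood at 407, 443 and 296 FPKM in Control, with 583, 589 and 572 in HN and 420, 347 and 419 in PEC. These FPKM were higher in HN than in Control, yet on the TMM scale Rpl36 differed by only 0.08 ± 0.13 and HN and Control overlapped, and no comparison called it. Without Control replicate 5 it was called lower in PEC against HN (-0.35) and against Control (-0.40).

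Rpl12, which binds the base of the stalk, had the largest rise of all members in HN. It stood at 152, 162 and 123 CPM in Control, with 282, 271 and 283 in HN and 365, 301 and 329 in PEC, so the 3 groups did not overlap. The rise was 0.93 ± 0.11 in HN (edgeR adjusted p = 0.000188), and the further 0.25 ± 0.11 in PEC was not called. The gene (ENSMUSG00000038900) is listed at chr2:32961559-32965345. Rpl3, which lies next to the site of peptide bond formation, stood at 302, 306 and 239 CPM in Control, with 437, 415 and 496 in HN and 472, 459 and 449 in PEC. It rose by 0.67 ± 0.11 in HN (edgeR adjusted p = 0.00121) and by 0.03 ± 0.11, not called, in PEC against HN.

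The 4 members that fell in HN were all paralogs: Rpl3l, Rpl36al, Rps27l and Rpl7l1. Rpl3l, a relative of Rpl3 used mainly in heart and skeletal muscle, was close to absent at 2.92, 3 and 3.56 CPM in Control, with 0.938, 0.574 and 0.529 in HN and 3.23, 2.73 and 1.97 in PEC. It was low in each HN library, falling by 2.21 ± 0.30 on the log2 scale (edgeR adjusted p = 0.000348) and rising by 1.96 ± 0.30 in PEC against HN (edgeR adjusted p = 0.001). Its PEC and Control libraries overlapped.

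Rpl36al, the autosomal copy of Rpl36a, stood at 144, 145 and 148 CPM in Control, with 99.2, 104 and 96.9 in HN and 135, 128 and 131 in PEC. It fell by 0.54 ± 0.07 in HN (edgeR adjusted p = 0.000183), where library totals gave 0.02, and rose by 0.39 ± 0.07 in PEC against HN (edgeR adjusted p = 0.00171). Rps27l, a target of p53, stood at 138, 131 and 130 CPM in Control, with 97.9, 89.8 and 94.1 in HN and 116, 98.6 and 106 in PEC. Each HN library was below each Control and each PEC library. It fell by 0.50 ± 0.08 in HN (edgeR adjusted p = 0.00103), although library totals gave 0.06 and limma on log2(FPKM + 1) 0.03.

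Rpl7l1, a relative of Rpl7, stood at 106, 103 and 104 CPM in Control, with 91.2, 79.1 and 87.3 in HN and 84.8, 87.9 and 90.9 in PEC. It fell by 0.28 ± 0.08 in HN (edgeR adjusted p = 0.0159), a call lost without Control replicate 2 (-0.27) or HN replicate 8 (-0.22), and the direction flipped to 0.28 with library totals and to 0.24 with limma on log2(FPKM + 1). So of the 4 falls, only that of Rpl3l kept its direction under each of these scalings. The median over the 12 tested paralogs and retrocopies was -0.13 in HN against Control. Of them 3 were higher and 4 lower (25% and 33.3%, against 21.1% and 20.7% of all genes). Library totals turned the median to 0.43 with 7 higher and 1 lower, where 45.1% of all genes rose and 7.97% fell.

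The other 3 paralogs that were called in HN rose. Rps4l, a relative of Rps4x by its name, stood at 11.1, 15.2 and 15.3 CPM in Control, with 22, 23.3 and 20 in HN and 26.1, 24.5 and 25.1 in PEC. It rose by 0.65 ± 0.13 in HN (edgeR adjusted p = 0.0037). Rps3a3 was near the floor at 1.85, 1.56 and 1.41 CPM in Control, with 2.53, 2.3 and 2.57 in HN and 3.31, 3.61 and 4.49 in PEC. It rose by 0.62 ± 0.20 in HN (edgeR adjusted p = 0.0366) and again by 0.62 ± 0.20 in PEC against HN (edgeR adjusted p = 0.0364). Such a retrocopy shares most of its sequence with its parent gene, so its value is uncertain where the counting split reads between them. Rpl22l1, the paralog of Rpl22, rose by 0.60 ± 0.21 in HN (edgeR adjusted p = 0.0461). That call was lost without any 1 library other than Control replicate 2 or 5 (0.58 to 0.70). For Rps3a3 the first call was lost without Control replicate 4 or 5, any 1 of the HN replicates or PEC replicate 2 (0.54 to 0.67), and the other without any 1 of the HN replicates or PEC replicate 2 or 3 (0.51 to 0.65).

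The second comparison asks what the drug changed in the diseased kidney. In PEC against HN, 35 of 90 members rose and 9 fell, where 18.3% of all genes tested rose and 20.6% fell. The members split in both directions more than in the first comparison: 11 of 31 small subunit genes rose and 2 fell, and 17 of 46 large subunit genes rose and 6 fell. The SD over the fold changes of the 77 canonical genes was 0.42, against 0.22 in HN against Control. The members' median was 0.19 and that of all genes -0.02, and all 3 libraries of PEC lay above all of HN for 43 members and below for 16 (26.3% and 29.1% of all genes).

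This median rests on how the libraries are scaled and on gene length. With library totals 17 members rose and 17 fell (18.9% each, against 12.1% and 28.2% of all genes), and the median was -0.01, against -0.21 over all genes. Limma on log2(FPKM + 1) gave 21 higher and 21 lower (23.3% each, against 16.3% and 39.4% of all genes) with a median of -0.03, against -0.19 over all genes. Relative to all genes the members thus lay 0.20 higher with TMM scaling as with library totals, and 0.16 higher with limma on FPKM. With the dependence on the implied gene length removed, 19 rose and 14 fell, and the members lay -0.01 from all genes. Their shares called were then 21.1% and 15.6%, against 21.4% and 15.7% of all genes. The small subunit median of 0.15 turned to -0.04 with library totals and to -0.01 with gene length removed, and the large subunit median of 0.16 turned to -0.03 with library totals and was 0.05 with gene length removed.

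The largest rise among canonical genes was that of Rpl28, a large subunit protein. It stood at 235, 241 and 230 CPM in Control, with 262, 236 and 231 in HN and 536, 427 and 548 in PEC. Control and HN overlapped and the 3 PEC libraries were all above them. The rise against HN was 1.05 ± 0.11 (edgeR adjusted p = 0.000131), and that of the gene with its 4 matched pseudogenes was 1.08. The gene (ENSMUSG00000030432) is listed at chr7:4792874-4795066.

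The largest fall was that of Rpl34, which stood at 176, 179 and 145 CPM in Control, with 251, 191 and 227 in HN and 121, 101 and 134 in PEC. Each PEC library was below each library of the other groups. It fell by 0.91 ± 0.14 in PEC against HN (edgeR adjusted p = 0.00117) after a rise of 0.42 ± 0.14 in HN (edgeR adjusted p = 0.0394), and it ended below Control by a log2 difference of -0.49 ± 0.14 (edgeR adjusted p = 0.0194). The rise in HN was not called without any 1 of the Control replicates, HN replicate 4 or 12 or PEC replicate 1 (0.33 to 0.48), nor the difference from Control without Control replicate 2 (-0.45) or 4 (-0.44) or PEC replicate 2 (-0.39). The gene (ENSMUSG00000062006) is listed at chr3:130726831-130730346.

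Rpl13 stood at 429, 437 and 365 CPM in Control, with 569, 546 and 533 in HN and 359, 309 and 340 in PEC. It rose by 0.42 ± 0.10 in HN (edgeR adjusted p = 0.0064) and fell by 0.71 ± 0.10 in PEC against HN (edgeR adjusted p = 0.000514). Its value in PEC against Control was -0.29 ± 0.09 (edgeR adjusted p = 0.0329), which flipped to 0.07 with library totals and 0.03 with limma on log2(FPKM + 1) and was not called without Control replicate 2 (-0.26) or 4 (-0.25) or PEC replicate 2 (-0.24) or 3 (-0.28). Rpl39, which lines the exit tunnel of the nascent chain, stood at 147, 154 and 119 CPM in Control, with 197, 184 and 190 in HN and 131, 105 and 116 in PEC. HN was above both other groups, and the fall in PEC against HN was -0.70 ± 0.12 (edgeR adjusted p = 0.00163).

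Rps21, a small subunit protein, stood at 126, 147 and 115 CPM in Control, with 172, 137 and 136 in HN and 101, 89.1 and 91 in PEC. Control and HN overlapped and PEC lay below both, with a fall of -0.66 ± 0.12 against HN (edgeR adjusted p = 0.00303). Rpl22l1 stood at 40.7, 37.5 and 21.2 CPM in Control, with 49.3, 51.6 and 49.5 in HN and 32.1, 26.8 and 27.8 in PEC, and fell by 0.80 ± 0.21 in PEC against HN (edgeR adjusted p = 0.0154). The falls of Rplp1, Rpl34, Rpl13, Rpl39, Rps21 and Rpl22l1 were thus spread over both subunits and a paralog.

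The rises in PEC against HN included retrocopies with low levels. Rpl6l stood at 19.7, 19.5 and 29.2 CPM in Control, with 25.1, 25.5 and 25.9 in HN and 88.6, 66.5 and 78.7 in PEC. The PEC libraries were all above the rest, a rise of 1.61 ± 0.17 (edgeR adjusted p = 0.000161). Rpl37rt, a retrotransposed copy of Rpl37, stood at 14, 14.1 and 16.9 CPM in Control, with 17.2, 12.6 and 14.8 in HN and 45.4, 33.7 and 42.8 in PEC, and rose by 1.45 ± 0.16 (edgeR adjusted p = 0.000178). Its value in HN against Control was -0.02 ± 0.15, not called, and turned to 0.54 with library totals. Rpl32l stood at 0.178, 0.128 and 0.656 CPM in Control, with 0.293, 0.205 and 0.308 in HN and 0.605, 0.955 and 1.33 in PEC, a rise of 1.83 ± 0.63 against HN (edgeR adjusted p = 0.0464). It was not called without any 1 of the HN or PEC replicates (1.56 to 2.07), and its level is close to 0. Rps3a2 stood at 3.72, 2.77 and 2.05 CPM in Control, with 4.21, 4.34 and 4.03 in HN and 6.26, 6.22 and 8.37 in PEC.

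Rps3a2 rose by 0.73 ± 0.23 in PEC against HN (edgeR adjusted p = 0.0342), a call lost without any 1 of the HN replicates or PEC replicate 1 or 3 (0.60 to 0.79). Rps27rt, a retrotransposed copy of Rps27, went the other way at 51.7, 69.9 and 83.2 CPM in Control, with 55.1, 49.1 and 33.6 in HN and 25.3, 15.6 and 38.6 in PEC. It was not called in PEC against HN (-0.79 ± 0.32, and called at -1.14 without PEC replicate 3) and lay -1.37 ± 0.33 from Control in PEC (edgeR adjusted p = 0.00781). Rps19bp1, the name that is no ribosomal protein, stood between 13.7 and 21.5 CPM in all 9 libraries and was called in no comparison, with -0.16 ± 0.17 in HN against Control and 0.26 ± 0.17 in PEC against HN, which was called at 0.42 without PEC replicate 2. Over the 12 tested paralogs and retrocopies, 7 rose and 1 fell in PEC against HN (58.3% and 8.33%, against 18.3% and 20.6% of all genes; median 0.51). Library totals gave 3 and 2 (0.31), where 12.1% of all genes rose and 28.2% fell. Gene length removed gave 3 and 2 (0.19), where 21.4% of all genes rose and 15.7% fell.

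The third comparison asks how far treated kidneys still differed from healthy ones, and shares its libraries with the first 2. In PEC against Control, 55 of 90 members rose and 6 fell, where 22.9% of all genes tested rose and 23.5% fell. Of the small subunit genes 22 rose and 1 fell, and of the large subunit genes 28 rose and 2 fell. The median was 0.54 over members, 0.61 over small and 0.42 over large subunit genes, against 0.04 over all genes. With library totals 72 rose and 1 fell (80% and 1.11%, against 36.4% and 13.3% of all genes), with a median of 0.89 against 0.40. With gene length removed 31 rose and 14 fell (34.4% and 15.6%, against 19.6% and 28.8% of all genes), with a median of 0.15 against -0.11. The 6 falls became 3 without Control replicate 2, without Control replicate 4 or without PEC replicate 2, and 9 without Control replicate 5. In these fits 20.4% to 21.2% of all genes fell. All libraries of PEC lay above all of Control for 57 members and below for 8 (29.1% and 28.2% of all genes).

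**Figure D2:**
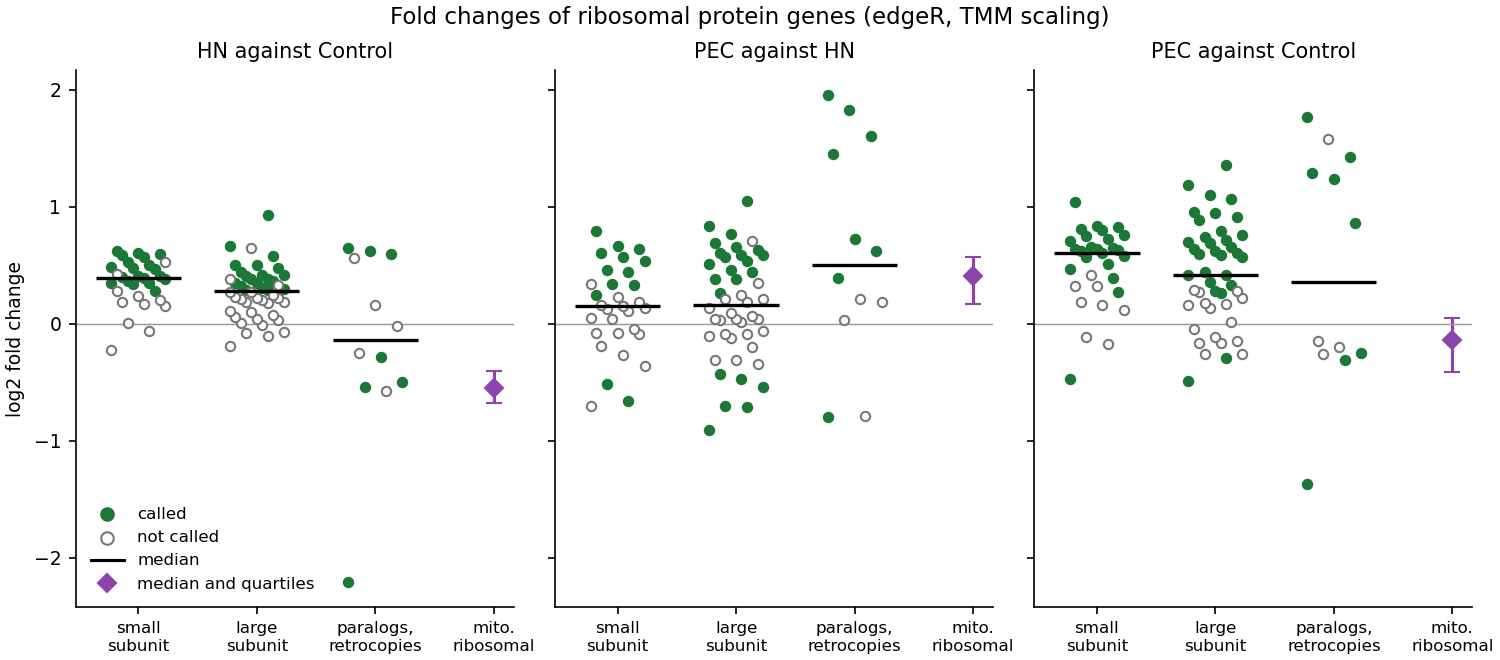
Log2 fold change (edgeR, TMM scaling) of each tested small subunit gene (n = 31), large subunit gene (n = 46) and paralog or retrocopy (n = 12) in the 3 comparisons, filled where called, with the class median as a line, and the median and quartiles of 78 mitochondrial ribosomal protein genes. In HN against Control every called canonical gene lies above 0, in PEC against HN they spread to both sides of medians of 0.15 and 0.16 that turn to -0.04 and -0.03 with library totals, and the mitochondrial median of -0.55 in HN turns to 0.01.

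The proportions among the canonical genes differed more between PEC and the other groups than between Control and HN. The log2 ratio of each gene between 2 libraries was taken, and its SD over the 77 genes measures how much their proportions differ, free of any scaling. Between replicates of a group this SD ranged from 0.14 to 0.24 in Control, 0.19 to 0.21 in HN and 0.14 to 0.23 in PEC. Between Control and HN libraries it ranged from 0.17 to 0.33, so part of these pairs were as alike as replicates. Between PEC and Control libraries it ranged from 0.41 to 0.45, and between PEC and HN libraries from 0.43 to 0.48. Each PEC library thus stood further from each library of the other groups than any pair of replicates stood apart. The labels name no batch, so a difference in handling of the PEC libraries cannot be told apart from the treatment.

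**Figure D3:**
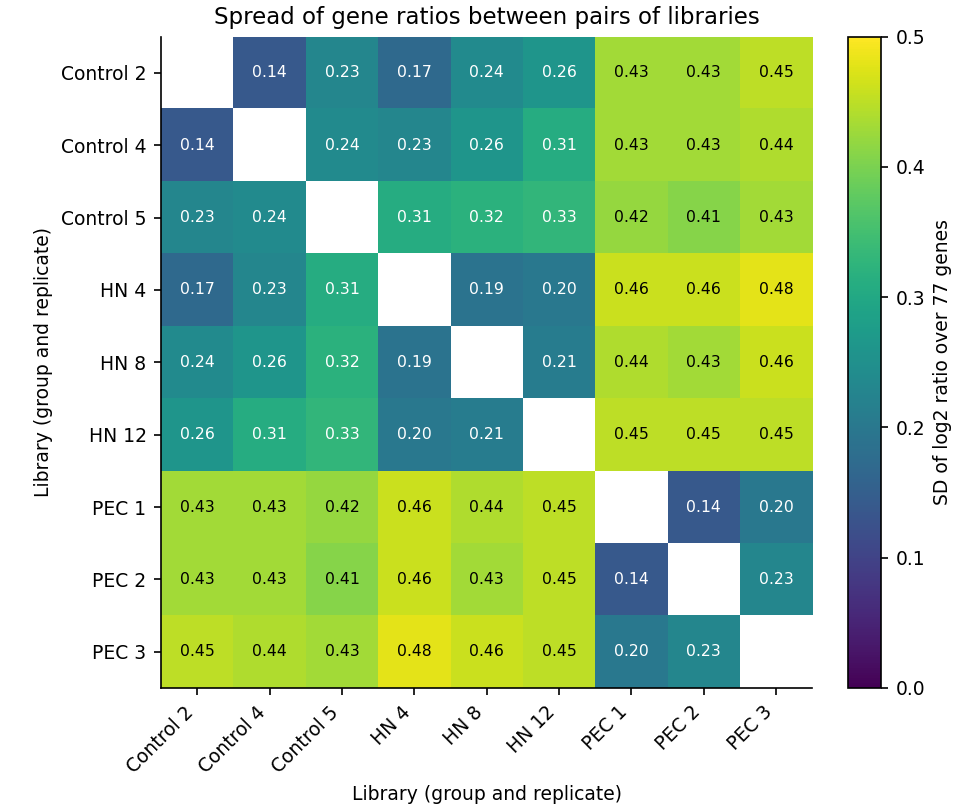
SD over 77 canonical genes of the log2 ratio of counts between each pair of the 9 libraries, given in the cells and by colour. Pairs within a group lie between 0.14 and 0.24, pairs of Control with HN between 0.17 and 0.33, and pairs of PEC with another group between 0.41 and 0.48.

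Levels of the canonical genes differed widely from gene to gene. The mean FPKM over the 9 libraries ran from 24.1 for Rpl21 to 864 for Rplp1, a 35.9-fold range with a median of 135. The low end is not a clean level, since 74 pseudogenes match Rpl21 and held 82.1%, 80.9% and 78.5% of its family's counts in the means of Control, HN and PEC. The length behind these FPKM, as implied by count, FPKM and library total, was 2.6 times the annotated mRNA length in the median over the 77 genes and up to 14.8 times. For genes with a single exon it was 1.12 times the annotated length in the median. Per kilobase of annotated mRNA, the mean CPM ran from 49.7 for Rps20 to 928 for Rplp1, an 18.7-fold range with a median of 379. The low end rests on the annotated length of Rps20, which is 3706 bases where the median of small subunit genes is 640. The lower and upper quartiles over the 77 genes were 266 and 496.

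Short transcripts were compared with long ones in classes of the length implied by the table. Other genes here are all tested genes outside the members. They hold pseudogenes that match a canonical gene in sequence, of which 365 were tested with a median of 1.65 in PEC against HN. The part of these pseudogenes in the medians of other genes, and in the dependence on length removed above, was not tested. In HN against Control the members lay above other genes in each class from 500 bases up: 0.20 against -0.19 at 750 to 1000 bases (9 members), 0.19 against -0.16 at 1000 to 1500 (15 members), 0.29 against -0.07 at 1500 to 2500 (30 members) and 0.35 against 0.01 at 2500 to 5000 (27 members). The 3 members under 500 bases went the other way, with -0.25 against 0.01. The medians of other genes in PEC against HN ran from 0.75 under 500 bases to -0.26 over 5000 bases. Here the members ran with the other genes: 0.62 against 0.56, 0.39 against 0.35, 0.17 against 0.19 and 0.03 against 0.01 in the same 4 classes. The 3 members under 500 bases had a median of -0.34.

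By annotated mRNA length the members had no such gradient in PEC against HN. Their medians were 0.15 under 500 bases (21 members), 0.21 at 500 to 750 (25 members), 0.25 at 750 to 1000 (26 members) and 0.04 at 1000 to 1500 (13 members), while other genes gave 0.74, 0.41, 0.29 and 0.22. Their medians in HN against Control were 0.20, 0.27, 0.34 and 0.35, against -0.04, -0.21, -0.11 and -0.09 over other genes. On this length too, the members lay above other genes in the disease. In PEC against HN they lay below other genes as short as they are, with matched pseudogenes counted among those.

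**Figure D4:**
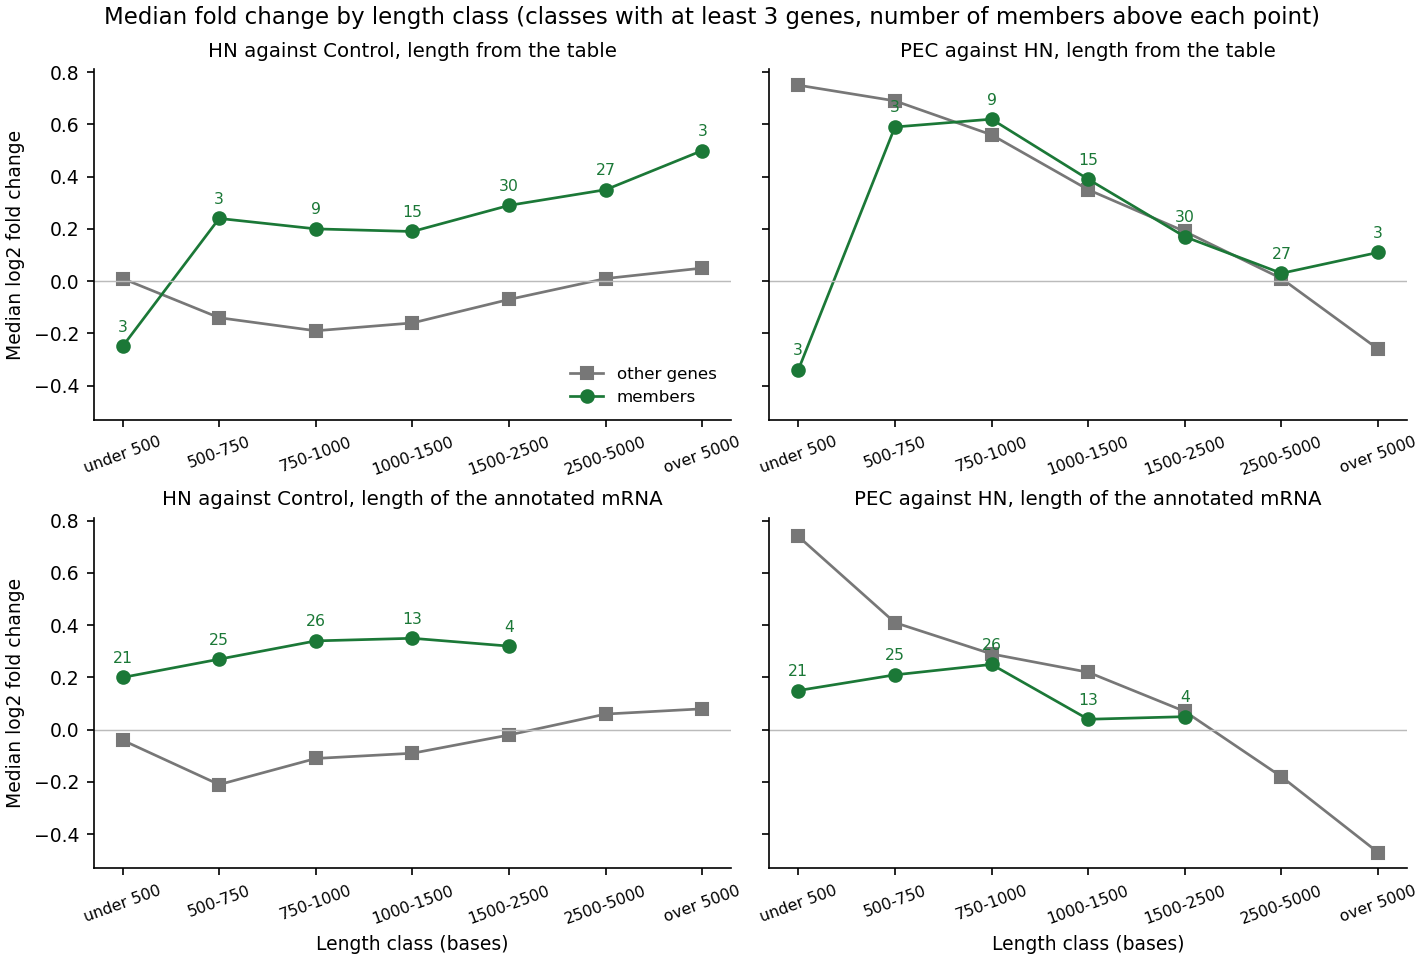
Median log2 fold change (TMM scaling) of members (circles, with their number) and of other genes (squares, matched pseudogenes included) by length class in bases, for HN against Control (left) and PEC against HN (right), with the length implied by the table (top) or that of the annotated mRNA (bottom). In HN against Control members lie above other genes in each class from 500 bases up, and in PEC against HN other genes run from 0.75 to -0.26 by the table's length, with members alongside from 500 to 5000 bases.

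Pseudogenes bear on these values, since reads of a gene can be placed on its copies. A sequence search matched 857 processed pseudogenes and retrocopies outside the members to a member. They summed to 2487, 2530 and 2238 CPM in Control, with 2847, 2559 and 2569 in HN and 4377, 3910 and 4195 in PEC, so PEC stood above both other groups. Among named pseudogenes, 151 of 311 had enough counts to be tested, and 87 rose and 5 fell in PEC against HN, with a median of 1.41, where 18.3% of all genes rose and 20.6% fell. Those near 0 in 2 groups entered the test through the group where they were high, so the filter fixes part of these counts and of the median, and they are a description only. For HN against Control the counts were 11 and 3 (median 0.16), and 49 and 1 with library totals (0.71).

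The share of a gene's family of sequences that lay on its pseudogenes also moved. For Rpl34 it was 5.98%, 6.62% and 6.61% in Control, with 4.7%, 6.4% and 6.61% in HN and 18.2%, 20.5% and 20.2% in PEC. For Rps21 the means were 1.19% ± 0.786, 0.775% ± 0.164 and 8.5% ± 0.966 (SD, n = 3), and for Rpl15 they were 21.6% ± 0.952, 22.7% ± 0.655 and 42.6% ± 2.09. PEC was apart from both other groups in each of these 3 families, which were picked because their genes fell. Of the 62 families with a matched pseudogene, the share lay higher in all of PEC than in all of HN for 45 and lower for 5. The same count gave 44 and 6 in PEC against Control, and 1 and 7 in HN against Control. Among those that went the other way, Rpl35a had means of 47.1% ± 1.46, 45.3% ± 1.91 and 34% ± 1.13 in Control, HN and PEC (SD, n = 3), and Rpl12 had 17.5% ± 1.74, 16.4% ± 1.29 and 11.7% ± 0.511. Some genes that fell, such as Rpl39, had no matched pseudogene.

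Adding the matched pseudogenes to each of the 77 canonical genes changed some calls. For PEC against HN, 28 genes rose and 8 fell alone, where 18.3% of all genes rose and 20.6% fell. With pseudogenes added 33 families rose and 7 fell, where 18% of all genes rose and 20.4% fell. All 28 rises and 7 of the 8 falls were shared, and no call switched direction. The fall lost was that of Rpl15, from -0.47 alone to -0.02 with its 21 pseudogenes. Rpl34 fell by 0.67 with its pseudogenes in place of 0.91, Rps21 by 0.53 and Rpl13 by 0.59. The SD over the 77 fold changes was 0.39 with pseudogenes added, against 0.42, a small change in the spread between the canonical genes. For PEC against Control 50 genes rose and 3 fell alone (22.9% and 23.5% of all genes), and 53 families rose and 1 fell (22.7% and 23.4% of all genes). There the falls of Rpl13 (-0.29 alone, -0.18 with pseudogenes) and Rpl34 (-0.49 and -0.25) were no longer called, and Rpl15 went from -0.15, not called, to a called 0.32.

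**Figure D5:**
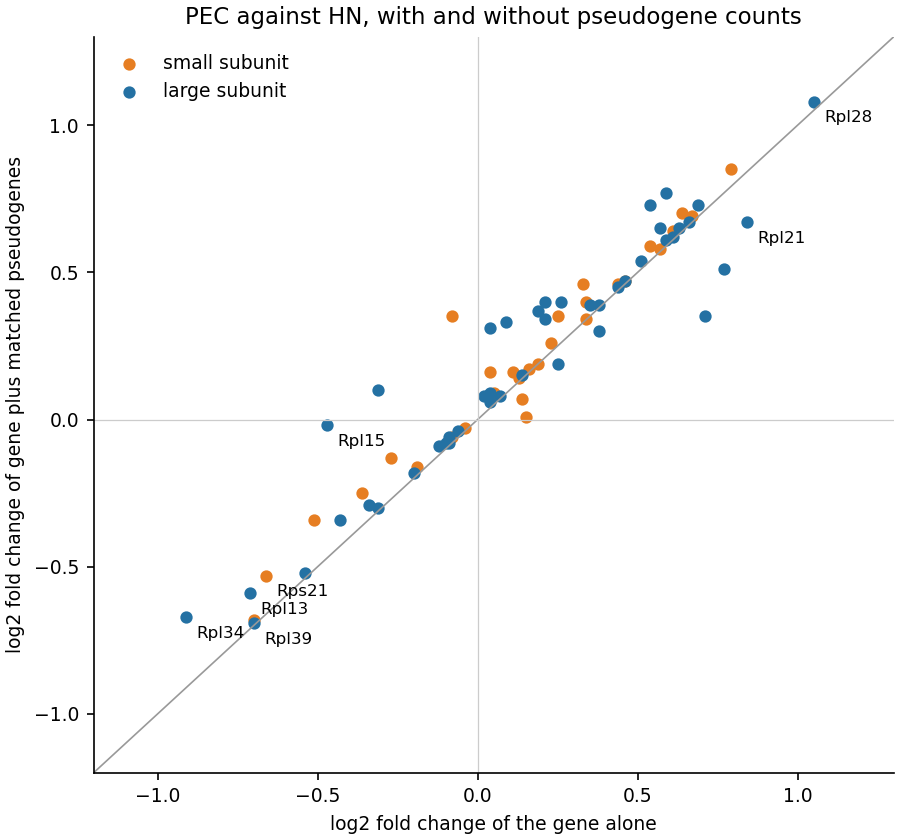
Log2 fold change in PEC against HN of each of 77 canonical genes alone (horizontal axis) and with its matched pseudogenes added (vertical axis, same scale, TMM scaling), with the line of equality. Most genes lie on or just above the line, Rpl28 stands at 1.05 and 1.08, Rpl34 at -0.91 and -0.67, and Rpl15 moves from -0.47 to -0.02.

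The run of pyrimidines at the start of these mRNAs was looked for in the promoters of RefSeq (build GRCm38.p6). The search took a C followed by at least 4 bases that are each C or T, on the transcribed strand, with its first base at most 10 bases from the annotated start. Of the 77 canonical genes 57 had a promoter in the table, too few for a comparison over the set, which is void for that reason, so the counts are a description. Among the 57, 34 held such a run (59.6%), as did 34.4% of all 27025 genes with a promoter and 44.9% of mitochondrial ribosomal protein genes. The windows of 6 genes with 1 promoter each are shown because their mRNAs moved in different ways, from 15 bases before to 15 after the annotated start, with the run in capitals. Rps6 at chr4:86857353-86857382, Rpl12 at chr2:32961697-32961726 and Rpl28 at chr7:4792950-4792979 hold a run by this search, and Rplp0 at chr5:115559452-115559481, Rps3a1 at chr3:86142654-86142683 and Rpl13 at chr8:123102335-123102364 do not. The Rpl13 window does hold pyrimidines after a C near its left end, but they begin more than 10 bases before the start.
Rps6: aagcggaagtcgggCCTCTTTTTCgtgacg
Rpl12: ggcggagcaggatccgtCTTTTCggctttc
Rpl28: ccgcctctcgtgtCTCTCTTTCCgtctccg
Rplp0: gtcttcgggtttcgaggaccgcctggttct
Rps3a1: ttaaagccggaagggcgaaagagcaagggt
Rpl13: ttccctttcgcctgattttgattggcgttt

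Both kinds of window occurred among genes that rose in HN: Rps6 and Rpl12 with a run within the search limit, and Rplp0, Rps3a1 and Rpl13 without one there. A match is a description of these letters and no test of a start site, and no match says only that the letters do not begin within 10 bases of the annotated start.

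Other genes of translation were looked at in the same fit. For the lists below, all genes tested are the reference. With TMM scaling 21.1% of them rose and 20.7% fell in HN against Control. The shares were 18.3% and 20.6% in PEC against HN and 22.9% and 23.5% in PEC against Control. Library totals gave, in this order, 45.1% and 7.97% (median 0.56), 12.1% and 28.2% (-0.21), and 36.4% and 13.3% (0.40). Gene length removed gave 16.7% and 31.6% (-0.22), 21.4% and 15.7% (0.06), and 19.6% and 28.8% (-0.11). A list of 19 genes holds translation factors and other RNA-binding proteins or chaperones, such as Hnrnpa1, a splicing protein, and Npm1 of the nucleolus. The search found the run in 6 of the 13 with a promoter (46.2%). Of the 19, 6 rose and 0 fell in HN against Control in edgeR (1 lower at an unadjusted p under 0.05, 0 in DESeq2), with a median of 0.06. With library totals all 19 rose (median 0.62, beside 0.56 over all genes), and with gene length removed 3 rose and 4 fell (-0.15, beside -0.22). Hnrnpa1 led them with 116 ± 4.96 CPM in Control, 206 ± 18.3 in HN and 193 ± 17.4 in PEC, a rise of 0.83 ± 0.10 in HN (edgeR adjusted p = 0.000142). Between PEC and HN 6 rose and 3 fell (3 and 6 with library totals), among them Eif3k, up by 0.83 ± 0.08 (edgeR adjusted p = 9.33e-05), and Pabpc1, the poly(A)-binding protein, at -0.46 ± 0.09 (edgeR adjusted p = 0.00306). Against Control 12 rose in PEC and 1 fell, with a median of 0.36, and with gene length removed 5 rose and 3 fell (0.09). Eef1a1 was the most abundant, with means of 3573, 3975 and 4893 CPM in Control, HN and PEC.

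For ribosome assembly genes the counts depended on the scaling, as they did for all genes. Of 40, 2 rose and 5 fell in HN against Control (median -0.01). Library totals gave 34 higher and 0 lower (0.54, beside 0.56 over all genes), and gene length removed gave 0 higher and 15 lower (-0.26, beside -0.22). Between PEC and HN 10 rose and 10 fell (0.09), with 1 and 13 under library totals (-0.11) and 14 and 6 with gene length removed (0.20). Against Control 8 rose and 8 fell in PEC (-0.00), with 22 and 2 under library totals (0.36) and 4 and 13 with gene length removed (-0.13). Nop58 and Nop56, core proteins of the particles that methylate ribosomal RNA, rose in HN by 0.49 ± 0.13 and 0.45 ± 0.15, and Nop10 fell by 0.60 ± 0.08 (edgeR adjusted p = 0.000253). Dkc1, the pseudouridine synthase that works with Nop10, fell in PEC against HN (-1.04 ± 0.11, edgeR adjusted p = 0.000174) while Nop10 rose by 0.87 ± 0.08.

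Of 14 genes that control such mRNAs, 3 rose and 7 fell in HN against Control (median -0.28), and 7 rose and 1 fell with library totals (0.28). Mtor fell by 1.33 ± 0.13 (edgeR adjusted p = 4.37e-05), and Myc, which drives transcription of ribosome genes, rose by 1.53 ± 0.30 (edgeR adjusted p = 0.00299). In PEC against HN 3 rose and 5 fell (median -0.26, and with gene length removed 4 and 3 with 0.15), with Larp4 at -1.22 ± 0.08 (edgeR adjusted p = 2.91e-05), and in PEC against Control 3 rose and 8 fell (-0.48), or 4 and 4 with library totals (-0.12).

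The snoRNA host genes share a pyrimidine start with the members. Their 12 names covered 13 rows, as Snhg4 has 2. Of these rows 4 rose and 0 fell in edgeR in HN against Control (0 lower at an unadjusted p under 0.05 and 0 in DESeq2), led by Snhg5 at 1.29 ± 0.25 (edgeR adjusted p = 0.00288), with a median of 0.12. Library totals gave 8 higher and a median of 0.67, and gene length removed gave 2 higher, 1 lower and -0.03. With treatment, in PEC against HN, 6 rose and 2 fell (median 0.67), and in PEC against Control 8 rose and 1 fell (0.77). Gas5, the most abundant, had means of 33.3, 46.1 and 73.3 CPM in Control, HN and PEC.

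Mitochondrial ribosomal proteins, which serve the organelle's own ribosome, went the other way in HN. Of 78 genes 1 rose and 63 fell, with a median of -0.55, though library totals gave 8 higher, 9 lower and a median of 0.01 beside 0.56 over all genes. Relative to all genes they were thus lower on both scales. Mrpl12 fell from 217 ± 13.6 CPM to 101 ± 5.81 (SD, n = 3), a log2 difference of -1.10 ± 0.08 (edgeR adjusted p = 1.05e-05). In PEC against HN 50 rose and 5 fell (median 0.41, where library totals gave 30 higher, 9 lower and 0.22), and in PEC against Control 6 rose and 27 fell (-0.14, where library totals gave 30 higher, 10 lower and 0.22). Of 14 core proteasome genes, another complex of fixed make-up, 1 rose and 10 fell in HN (median -0.33, where library totals gave 5 higher, 0 lower and 0.22), 3 rose and 0 fell in PEC against HN in edgeR (0.15, and -0.05 with library totals, with 2 lower at an unadjusted p under 0.05 and 1 in DESeq2), and 1 rose and 4 fell in PEC against Control (-0.06, where library totals gave 7 higher, 2 lower and 0.30).

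Markers of cell types moved with the same groups. The 12 proximal tubule markers summed to 43776, 43198 and 60617 CPM in Control, with 6706, 8003 and 7377 in HN and 19949, 25620 and 16831 in PEC, with Kap the most abundant. Of them 11 fell in HN against Control and 11 rose in PEC against HN, and 10 fell in PEC against Control. The marker that did not rise in PEC against HN stood at -1.08, not called in edgeR but lower at an unadjusted p under 0.05. DESeq2 called 1 marker lower there, and library totals gave 8 higher and 1 lower. The 8 injured tubule markers summed to 1171, 1224 and 968 CPM in Control, with 20220, 17533 and 17548 in HN and 15566, 15868 and 13242 in PEC, with Spp1 the most abundant. All 8 rose in HN and in PEC against Control, with Havcr1 up by 7.58 ± 0.33 in HN (edgeR adjusted p = 1.39e-06), and 2 fell in PEC against HN.

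Stromal and immune markers followed. The 8 fibroblast and myofibroblast markers summed to 357, 351 and 337 CPM in Control, with 2611, 2672 and 2406 in HN and 1268, 1397 and 1184 in PEC. Col3a1 led them in HN and PEC but not in Control, where its mean was 49.7 CPM and that of Pdgfra 59.2. All 8 rose in HN, 6 fell in PEC against HN and 6 rose in PEC against Control. The 8 macrophage markers summed to 130, 150 and 143 CPM in Control, with 1735, 1722 and 1500 in HN and 683, 722 and 909 in PEC, led by Lyz2 in HN and PEC. All 8 rose in HN, 7 fell in PEC against HN and 8 rose in PEC against Control.

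The 11 lymphocyte markers summed to 18.5, 23.5 and 20.5 CPM in Control, with 118, 146 and 102 in HN and 33.7, 65.7 and 40.7 in PEC, led by Ptprc, which other leukocytes also carry. In edgeR 9 rose in HN, 4 fell in PEC against HN and 7 rose in PEC against Control. The 8 proliferation genes summed to 75.5, 83.1 and 74.6 CPM in Control, with 193, 184 and 203 in HN and 140, 154 and 128 in PEC, led by Pcna. In edgeR 7 rose in HN, 2 fell in PEC against HN and 7 rose in PEC against Control. No marker of these lists was at 0 in all 9 libraries. Cells of these types may differ in their ribosomal protein mRNA, which was not measured here, and their part in the members' result was not tested.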

How the data were processed

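Poly(A) RNA of 9 mouse kidney libraries was sequenced, and the authors deposited gene counts and FPKM in 1 table. The submitters' processing notes name Bowtie 0.12.2 and the builds mm8 and mm9, with no role given. How reads matching several places, strand or overlapping genes were counted is not given in the sources used here. Coordinates are the table's own, identical to GENCODE M21 (GRCm38) for 80 of 93 members. Members and gene lists were chosen with earlier results of these data known. Counts were fitted in edgeR 4.0.16 (R 4.3.3, TMM, filterByExpr, quasi-likelihood test, 1 mean per group, all 9 libraries), called at an adjusted p of at most 0.05. On simulated counts with 2-fold changes this test missed a recovery limit set for it, and a run with larger changes, which passed, was added afterwards, so many changes of 2-fold or less may go uncalled. Alternatives were DESeq2 1.42.0, median-of-ratios scaling, library totals, mitochondrial genes left out, no filter, limma 3.58.1 on log2(FPKM + 1) or log2(FPKM + 0.1) at a mean FPKM of at least 0.5, only the 2 groups compared, gene length removed by a spline with 5 degrees of freedom, a 1.5-fold rule, named pseudogenes added, and each library left out. Chosen after seeing the data were the pseudogenes matched by blastn 2.17.0 (identity at least 90% over at least 50% of the mRNA), the mRNA length (shortest coding transcript with a CCDS region, which replaced a first rule that gave implausible lengths), the subunit ratio, the spread between pairs of libraries and the pyrimidine run, of which 1 definition was tried. The gene length removed was that implied by the table, not the annotated mRNA length. Wilson intervals are from scipy 1.17.1. No pair of replicates within a group agreed within sampling noise.

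Named genes were the 3 small and 3 large subunit genes with the highest mean FPKM, the 5 largest rises and falls among called members in HN against Control and in PEC against HN, all paralogs and retrocopies, Rps19bp1, and up to 3 genes per list and direction by adjusted p, of which some are printed. Rpl15, Rpl21, Rps20, Rpl35a and the pseudogenes were named after their values were seen. Lists were translation factors with other RNA-binding proteins, ribosome assembly, control of such mRNAs, snoRNA host genes, mitochondrial ribosomal proteins, proteasome core, named pseudogenes, and markers of proximal tubule, injured tubule, fibroblast, macrophage, lymphocyte and proliferation. The result of a further list is not reported.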

Additional observations from a re-analysis of the deposited data

Results flagged for a closer look

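Pseudogenes that match a ribosomal protein mRNA in sequence but carry another name enter the results of the members only where matched pseudogenes were added, and they held more of the counts in treated kidneys than in Control. These 641 rows held 0.0877%, 0.0755% and 0.0783% of the counts in Control, with 0.145%, 0.135% and 0.136% in HN and 0.212%, 0.183% and 0.2% in PEC. The means were 0.0805% ± 0.00641 in Control, with 0.139% ± 0.00553 in HN and 0.199% ± 0.0145 in PEC (SD, n = 3), and the 3 groups did not overlap. Counting error was at most 0.00115 percentage points to either side (Wilson). Gm8226 was the most abundant of them, at 117, 2.23 and 113 CPM in Control, with 134, 115 and 119 in HN and 196, 181 and 188 in PEC. Control replicate 4 thus stood far below the other Control libraries, which lay near those of HN, and it also had the lowest share. In the same library a named pseudogene, Rpl7a-ps11, stood at 306 CPM where the other Control libraries had 121 and 115. The part of either gene in the result was not tested. No group holds more than 3 libraries, so no single library was tested for standing apart.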

How the results depend on the processing

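No paired analysis was run, since the study assigned mice to its groups at random and equal replicate numbers are not taken as pairs. DESeq2, median-of-ratios scaling, leaving out mitochondrial genes, no filter, fitting only the 2 groups and adding pseudogenes kept each count of called members at most 1.5 times apart and each median's direction. For HN against Control, library totals gave 82 members called (81 higher, 1 lower, median 0.86), limma on log2(FPKM + 1) 82 (81, 1, 0.82), limma on log2(FPKM + 0.1) 82 (81, 1, 0.84), gene length removed 18 (13 higher, median 0.13) and the 1.5-fold rule 11 (10, 1). Of all genes, 52.3% rose and 10.9% fell with limma at pseudocount 1 (median 0.35), and 52.1% and 10.8% at pseudocount 0.1 (0.47). For PEC against HN, library totals gave 17 higher, 17 lower and a median of -0.01, limma on log2(FPKM + 1) 21, 21 and -0.03, limma on log2(FPKM + 0.1) 20, 21 and -0.03, gene length removed 19, 14 and 0.05, and the 1.5-fold rule 27 called, 20 higher. Of all genes, 15.7% rose and 38.1% fell with limma at pseudocount 0.1. The 1.5-fold rule called 22.2% of members higher and 7.78% lower, against 15.7% and 17.6% of all genes. For PEC against Control, library totals gave 1 lower and a median of 0.89, limma 1 lower with 0.85 (pseudocount 1) and 0.86 (pseudocount 0.1), gene length removed 31 higher, 14 lower and 0.15, and the 1.5-fold rule 1 lower. Of all genes, 18.7% fell with limma at pseudocount 1, 18.9% at pseudocount 0.1 and 19.1% under the 1.5-fold rule. Over all genes, library totals gave 9642 higher and 1706 lower in HN against Control. The cause was not tested. The member share was 1.82% in Control, 3.02% in HN and 3.12% in PEC without mitochondrial genes, and 3.05% in HN and 2.99% in PEC with named pseudogenes.

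Leaving out 1 library gave 32 to 47 members called in HN against Control (28 to 43 higher, 3 to 4 lower, median 0.27 to 0.35), 35 to 47 in PEC against HN (26 to 35 higher, 8 to 12 lower, 0.15 to 0.24) and 52 to 61 in PEC against Control (47 to 55 higher, 3 to 9 lower, 0.45 to 0.60), and shares of 1.5% to 1.67% in Control, 2.82% to 2.85% in HN and 2.66% to 2.87% in PEC. In these fits 17.1% to 21% of all genes rose and 16.2% to 20.5% fell in HN against Control. For PEC against HN 13.4% to 17.9% of all genes rose and 16% to 20.8% fell. For PEC against Control 19% to 21.1% rose and 20.3% to 22.1% fell. Directions reversed for Rpl36al in HN against Control (0.02 with library totals), for Rps27l (0.06 with library totals and 0.03 with limma at both pseudocounts in HN against Control, 0.05 and 0.00 in PEC against Control), for Rpl7l1 (0.28, 0.24 at pseudocount 1 and 0.25 at pseudocount 0.1 in HN against Control, 0.11 and 0.07 in PEC against Control) and for Rpl13 in PEC against Control (0.07 and 0.03).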
